A study of Mus musculus with 5 samples.

Results

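The genes that cells need to divide their chromosomes were examined in mouse haematopoietic stem cells from wild type mice and from mice labelled as double deficient for the Wnt co-receptors Lrp5 and Lrp6. The set comprised 41 genes of the mitotic spindle, the kinetochore, the cyclin B kinase and cytokinesis, chosen by name from the 33894 named genes in the files, and each was found by its symbol. All 41 passed the filter on low counts and were among the 13696 genes tested. They were grouped by role as spindle checkpoint (5 genes), kinetochore and centromere (7), cyclins and Cdk1 (4), anaphase-promoting complex and securin (3), mitotic kinases and the chromosomal passenger complex (6), kinesin motors (5), spindle microtubule-associated proteins (6), cytokinesis (3), and chromosome structure with the proliferation marker Mki67 (2).

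RNA was sequenced in bulk from bone marrow cells sorted as lineage-negative, Sca1-positive and c-Kit-high without CD34 and Flt3, a gate used for long-term stem cells. The mice were 8 weeks old. The WT group held 2 libraries and the other group 3 libraries labelled Lrp5/6 dKO, whose genotype combines Vav-cre with floxed alleles of both genes (Lrp5 fl/fl and Lrp6 fl/fl). Vav-cre is a Cre recombinase transgene active in blood cells, and the labels name it in the dKO group only, so an effect of Cre and loss of both genes cannot be told apart. The labels give no sex, batch or animal for a library, so every p-value reflects the spread among these 5 libraries alone, which may be technical.

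Stem cells of this gate are mostly quiescent, whereas the progenitors they give rise to divide often. Entry into mitosis is driven by Cdk1 bound to cyclin B. Kinetochores then attach chromosomes to the spindle, the spindle checkpoint holds anaphase until all are attached, and the anaphase-promoting complex with Cdc20 marks securin and cyclin B for destruction. Transcripts of most of these proteins are made late in the cell cycle and are low in resting cells. Their promoters often carry NF-Y boxes (CCAAT) and a cell cycle genes homology region (CHR, core TTTGAA), through which the DREAM and MuvB complexes repress or activate them.

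Library totals were 16028512 to 28027458 counts, with dKO replicate 2 the shallowest and, at correlations across genes of 0.851 at most, the least like the others. At gene level Lrp6 measured 25.1 and 9.29 CPM in WT and 29.1, 15.7 and 28.4 in dKO replicates 1 to 3, and Lrp5 0.266 and 1.28 against 1.36, 0.121 and 2.63. CPM are counts relative to library size, as scaled by the trimmed mean of M values (TMM). Neither gene was lower in the dKO-labelled group, and gene totals do not show whether a floxed exon was lost, so dKO is used below as the name on the label. Of the gate's own genes, Kit measured 441 and 347 CPM in WT and 699, 842 and 572 in dKO replicates 1 to 3. Ly6a (Sca1) measured 176 and 90.8 CPM against 143, 98.4 and 150. Transcripts of the antigens absent from the gated surface were also measured, with Cd34 at 1212 and 761 CPM against 946, 968 and 1086. Flt3 measured 238 and 116 CPM against 338, 300 and 360. All 4 were lowest in WT replicate 2. For 2 of the 4, Kit and Flt3, every dKO-labelled library was above both WT libraries, beside 13.7% of all genes. No mitotic gene was at 0 in any library. The lowest of the 205 values rested on 155 counts (Ndc80 in dKO replicate 2), and the highest on 11030 (Top2a in WT replicate 2).

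The promoters show what the set shares in sequence, independently of the expression values. RefSeq promoter entries on GRCm38.p6, spanning 250 bases before to 50 bases after the start site, were found for 35 of the 41 genes, as 38 promoters. No entry matched Aurkb, Ccna2, Incenp, Kif20a, Spc24 or Tpx2. TTTGAA was read on both strands in 30 of the 38 (78.9%), against 17.9% of all 32851 promoters in the table. CCAAT on either strand was also in 30 (78.9%), against 37.4% of all promoters, and at 2 or more places in 55.3% against 11.7%. Both motifs were present together in 27 (71.1%), against 6.95% of all promoters. Among 109 promoters of 98 other mitosis genes the corresponding shares were 39.4% for TTTGAA, 58.7% for CCAAT and 27.5% for both. The 2 motifs shared letters at 1 place among the 38 promoters.

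Matches of TTTGAA lay close to the start site. Of 38 matches, 28 (73.7%) were within 50 bases of it, compared with 26.3% of 6737 matches over all promoters. CCAAT matches lay mostly just upstream, with 47 of 70 (67.1%) in the 100 bases before the start, compared with 43.8% of 17707 matches. The stretches printed here are the 150 bases that end at the base before the start, 5′ to 3′ on the gene's strand, with TTTGAA and CCAAT (or their reverse complements TTCAAA and ATTGG) in capitals. Of the 38 TTTGAA matches, 13 (34.2%) lay in the 100 bases before the start, beside 30.7% of matches over all promoters. The first 6 genes printed carry both motifs upstream of the start. They are Cdk1, the kinase of mitotic entry, at chr10:69352913-69353062 (minus strand), and Cdc20, the activator of the anaphase-promoting complex, at chr4:118437344-118437493 (minus strand). Ube2c, the ubiquitin-conjugating enzyme of that complex, lies at chr2:164769779-164769928 (plus strand), and Top2a, the topoisomerase that untangles sister chromatids, at chr11:99024190-99024339 (minus strand). The last 2 are Ckap2l, a spindle protein, at chr2:129297213-129297362 (minus strand), and Mki67, the antigen of cycling cells, at chr7:135716380-135716529 (minus strand).
Cdk1: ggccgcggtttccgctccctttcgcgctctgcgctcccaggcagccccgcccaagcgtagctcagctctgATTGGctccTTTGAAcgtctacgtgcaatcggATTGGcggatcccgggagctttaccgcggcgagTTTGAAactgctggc
Cdc20: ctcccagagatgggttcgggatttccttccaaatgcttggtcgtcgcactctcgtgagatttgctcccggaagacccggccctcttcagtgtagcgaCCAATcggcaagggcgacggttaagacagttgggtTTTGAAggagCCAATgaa
Ube2c: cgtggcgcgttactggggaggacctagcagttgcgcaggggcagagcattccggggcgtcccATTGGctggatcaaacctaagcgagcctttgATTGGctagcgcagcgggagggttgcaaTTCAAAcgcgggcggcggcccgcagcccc
Top2a: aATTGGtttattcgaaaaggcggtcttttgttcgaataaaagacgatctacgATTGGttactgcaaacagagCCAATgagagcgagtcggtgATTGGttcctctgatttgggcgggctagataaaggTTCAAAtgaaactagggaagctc
Ckap2l: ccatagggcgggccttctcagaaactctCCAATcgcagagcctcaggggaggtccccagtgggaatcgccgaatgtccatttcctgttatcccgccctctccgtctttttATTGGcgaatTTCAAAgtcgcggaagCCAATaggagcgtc
Mki67: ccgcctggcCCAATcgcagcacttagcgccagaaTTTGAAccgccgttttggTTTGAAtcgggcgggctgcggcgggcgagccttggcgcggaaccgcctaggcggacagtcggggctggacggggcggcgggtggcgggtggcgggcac

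The next 4 show other arrangements among genes on which the expression results turn. Ccnb1, encoding cyclin B, at chr13:100786487-100786636 (minus strand), has 2 CCAAT matches and no TTTGAA in the whole window. Ccnb2, encoding the other cyclin B, at chr9:70421555-70421704 (minus strand), has 3 CCAAT matches here and its 2 TTTGAA matches outside the printed bases. Bub1, a checkpoint kinase, at chr2:127831860-127832009 (minus strand), has 2 CCAAT matches and no TTTGAA, and Nuf2, a subunit of the kinetochore's microtubule-binding complex, at chr1:169531465-169531614 (minus strand), has neither.
Ccnb1: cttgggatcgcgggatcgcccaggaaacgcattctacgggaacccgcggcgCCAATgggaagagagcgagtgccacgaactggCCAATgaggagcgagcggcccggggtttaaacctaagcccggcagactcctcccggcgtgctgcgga
Ccnb2: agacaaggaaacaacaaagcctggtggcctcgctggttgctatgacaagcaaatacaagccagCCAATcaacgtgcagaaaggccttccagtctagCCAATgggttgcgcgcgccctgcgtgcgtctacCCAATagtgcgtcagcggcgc
Bub1: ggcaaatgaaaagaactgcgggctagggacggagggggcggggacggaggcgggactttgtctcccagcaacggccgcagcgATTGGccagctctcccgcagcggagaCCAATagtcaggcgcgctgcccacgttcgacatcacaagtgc
Nuf2: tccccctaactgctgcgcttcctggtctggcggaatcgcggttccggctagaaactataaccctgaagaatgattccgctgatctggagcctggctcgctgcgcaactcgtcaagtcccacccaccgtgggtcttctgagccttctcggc

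TTTGAA was absent from the window in 8 genes, which were Birc5, Bub1, Ccnb1, Cenpe, Mad2l1, Nuf2, Nusap1 and Pttg1. Of these, 5 also lacked CCAAT (Birc5, Mad2l1, Nuf2, Nusap1 and Pttg1). Absence says only that these letters are not in this window.

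**Figure D1:**
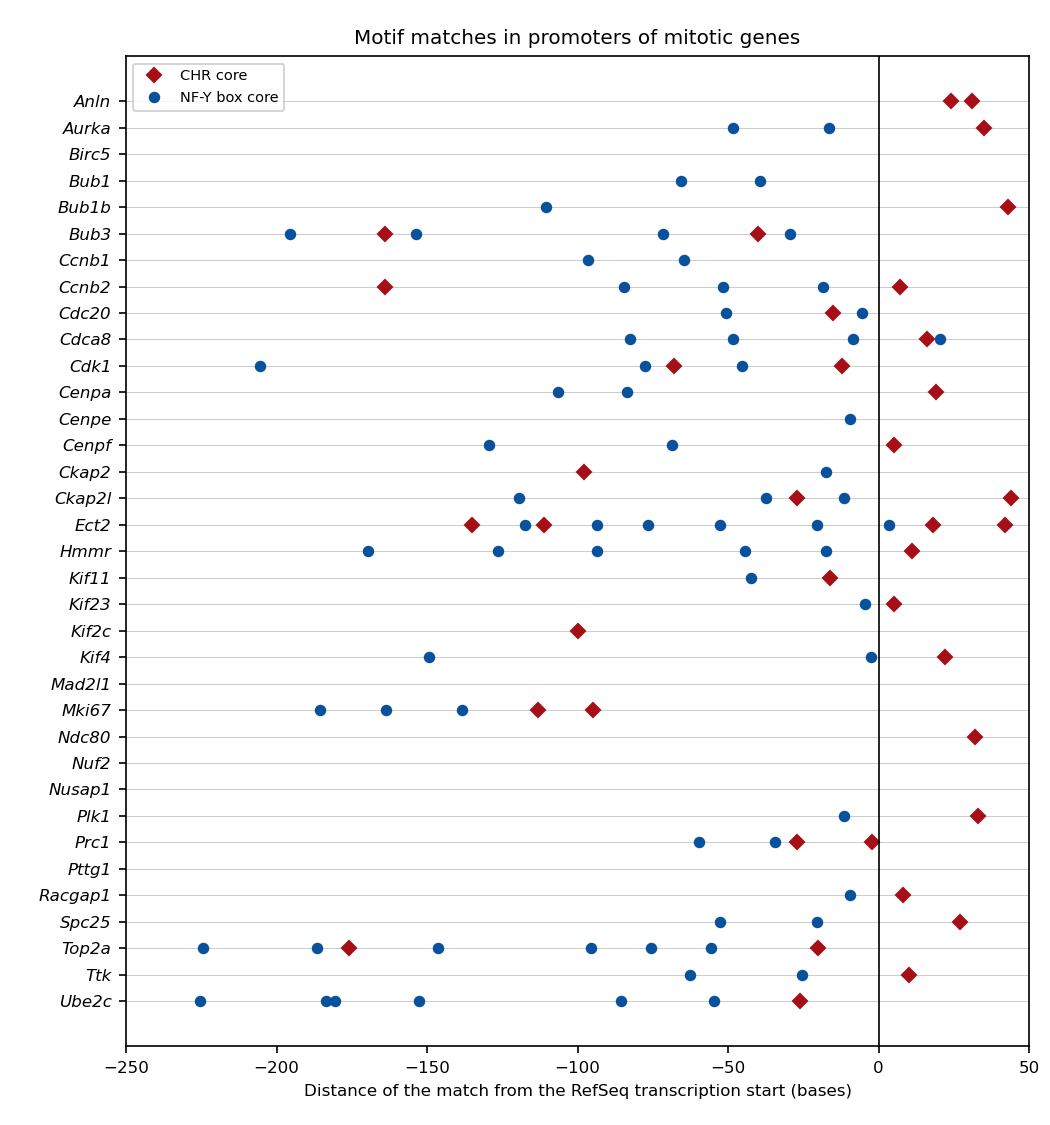
Positions of the CHR core (red diamonds) and the NF-Y box core (blue circles) in the promoters of 35 mitotic genes, in bases from the RefSeq start site, over 250 bases before to 50 after it. For genes with more than 1 promoter entry the matches of all entries are shown, each from its own start. Of the CHR core matches 28 of 38 lie within 50 bases of the start, and 5 genes have no match of either kind.

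The comparison of dKO-labelled with WT libraries asks whether stem cells labelled as lacking Lrp5 and Lrp6 carried a different amount of mitotic transcript. The fitted value was lower in the dKO-labelled group for 34 of the 41 genes and higher for 7 (Ttk, Cenpe, Cenpf, Kif20a, Kif23, Kif2c and Kif4). The median log2 fold change was -0.42, beside 0.04 over all tested genes. No gene passed the quasi-likelihood test of edgeR after Benjamini-Hochberg adjustment over all genes, where 0% of all 13696 genes were called. At an unadjusted p under 0.05, 6 of the 41 were lower (14.6%; Bub1, Nuf2, Ccna2, Birc5, Cdca8 and Ckap2l), beside a background of 5.19% of all genes, and 0 were higher, beside 4.94%. DESeq2 called 2 genes lower, Bub1 and Nuf2, and 0 higher, where it called 0.729% of all genes lower and 1.28% higher. Limma-voom with sample quality weights called 0. In bulk RNA, fewer dividing cells and less of these transcripts per cell cannot be told apart.

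In 12 of the 41 genes (29.3%) every dKO-labelled library was below both WT libraries, beside 15.6% of all genes, and in 0 was every one above, beside 13.7%. On the authors' TPM scale the count was 9, beside 8.81% of all genes, since Cdca8, Pttg1 and Top2a overlapped there. The 12 in CPM were Bub1, Mad2l1, Nuf2, Ndc80, Ccna2, Pttg1, Birc5, Cdca8, Ckap2l, Hmmr, Top2a and Mki67. They came from 7 of the 9 role groups, with none from the kinesins or the cytokinesis genes.

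The WT libraries were themselves far apart. WT replicate 2 exceeded WT replicate 1 in all 41 genes in CPM, whereas it did so in 48.7% of all tested genes. The ratio ran from 1.09 for Top2a to 2.62 for Kif4, with a median of 1.60, and was at least 2-fold for 10 genes (Cenpf, Ccnb1, Ube2c, Plk1, Aurka, Kif23, Kif2c, Kif4, Tpx2 and Nusap1). In the authors' TPM values, transcript levels relative to length and library size, WT replicate 2 was higher in 39, the exceptions being Spc25 and Top2a. The summed level of the 41 genes was 4202 CPM in WT replicate 1 and 6611 CPM in WT replicate 2. In the dKO-labelled replicates 1, 2 and 3 it was 3238, 4724 and 4042 CPM, of which the second lay between the WT values and the other 2 below both. WT replicate 2 was the highest library for 34 of the 41 genes, against 22.7% of all genes.

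The fold changes therefore differed with the WT library they were set against. Without WT replicate 2, 22 of the 41 had a lower value, the median was -0.07 and 0 were lower at an unadjusted p under 0.05, beside 0.930% of all genes in that fit. Without WT replicate 1, 40 had a lower value (all but Kif4), the median was -0.69 and 16 were lower at that threshold, beside 5.17%. The 22 genes lower against WT replicate 1 alone were also lower against WT replicate 2 alone. This follows from WT replicate 2 exceeding WT replicate 1 in all 41 genes, so it is no separate result. In each of these fits the single WT library is assumed to vary like the other group. Without dKO replicate 2, 22 of the 41 had every dKO-labelled library below both WT libraries, beside 20.4% of all genes, and 11 reached an unadjusted p under 0.05, beside 4.48%.

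**Figure D2:**
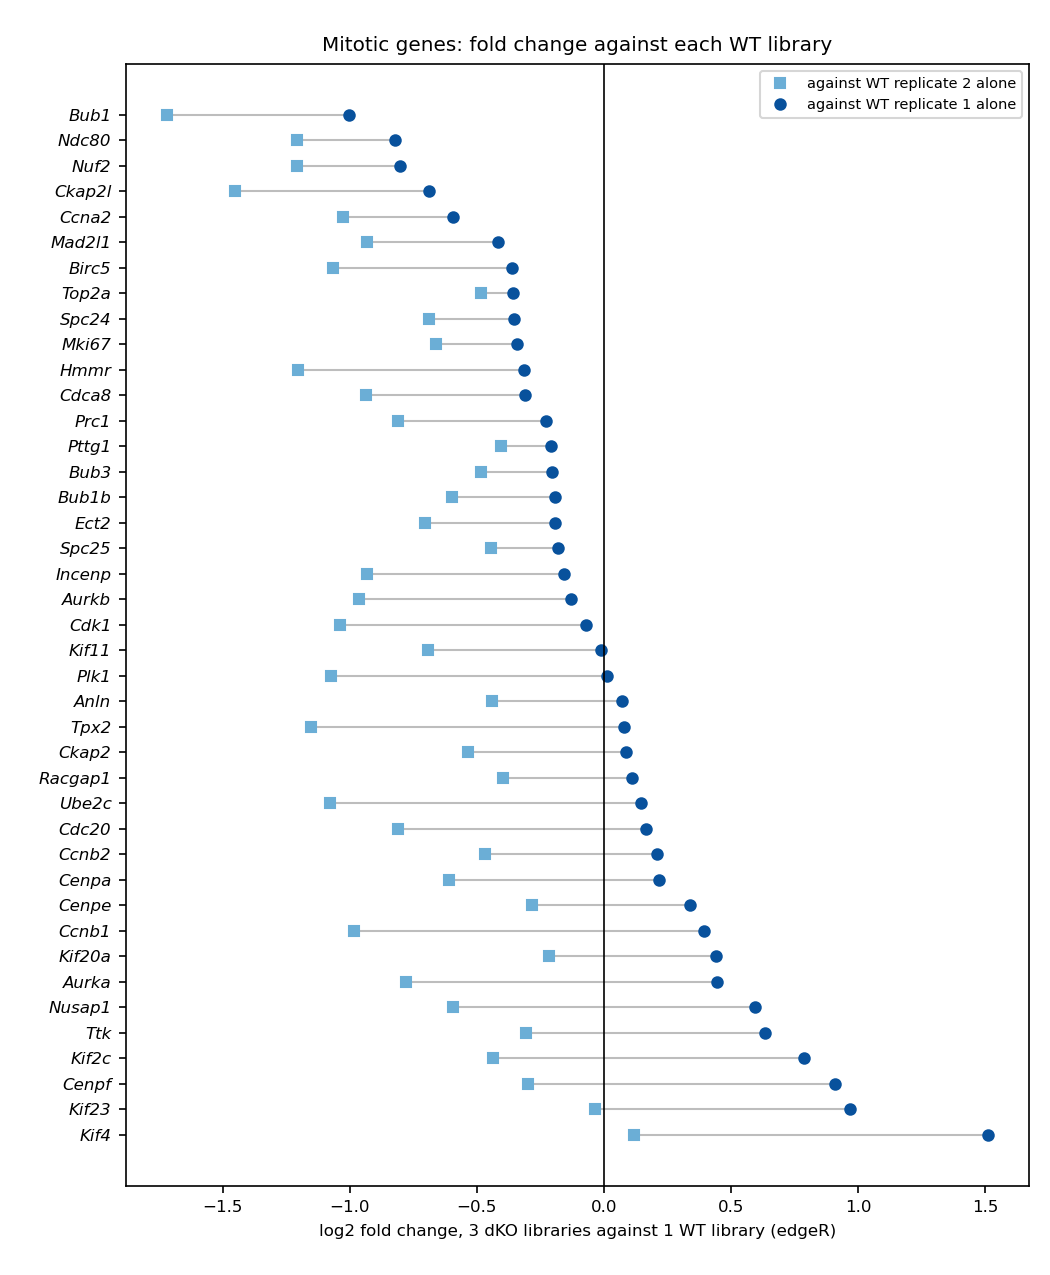
Log2 fold change (edgeR) of the 41 mitotic genes, 3 dKO-labelled libraries against WT replicate 1 alone (dark circles) or WT replicate 2 alone (light squares), ordered by the value against WT replicate 1. All squares but that of Kif4 lie below 0, and 22 of the 41 circles do.

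Markers of other cells moved with this gap. The 8 granulocyte progenitor markers summed to 6471 CPM in WT replicate 1, 42271 CPM in WT replicate 2 and 12290, 15761 and 11107 CPM in dKO replicates 1 to 3. All 8 were highest in WT replicate 2, and none was at 0 counts in any library. Mpo, the myeloperoxidase of granule precursors, measured 3447 and 21486 CPM in WT and 6782, 9684 and 6031 in the dKO-labelled libraries. Elane, neutrophil elastase, measured 1248 and 8998 CPM against 2694, 3086 and 2463. The 8 stem cell markers ran the other way, summing to 731 and 492 CPM in WT and 1021, 993 and 1033 in the dKO-labelled libraries. Of these, Procr measured 51.6 and 32.6 CPM against 70.5, 45.7 and 76.9, and Slamf1 4.60 and 12.6 against 7.74, 19.4 and 23.6. The part of these cells in the level of the mitotic genes was not tested.

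Several markers of other lineages were higher in the dKO-labelled libraries. The 8 mast cell markers summed to 194 and 405 CPM in WT and 323, 998 and 469 in the dKO-labelled libraries. Mcpt8 alone of the 8 had a lower fitted value (-0.17), at 88.6 and 342 CPM against 93.6, 317 and 166. Of the 8 markers, 6 had every dKO-labelled library above both WT libraries, beside 13.7% of all genes. They included Cpa3, a mast cell carboxypeptidase, at 40.4 and 38.1 CPM against 60.1, 124 and 96.1, and Prss34, a basophil protease, at 53.9 and 14.7 against 131, 489 and 152, while Gzmb was at 0 in dKO replicate 2. Of the 8 erythroid markers, 6 had a higher fitted value and 2 a lower one. In 2 of the 8 every dKO-labelled library was above both WT libraries, beside 13.7% of all genes. Car1, a carbonic anhydrase, measured 6.57 and 6.45 CPM in WT and 69.9, 58.2 and 62.7 in the dKO-labelled libraries, without overlap. Klf1, an erythroid transcription factor, overlapped at 6.19 and 0.160 CPM against 18.8, 15.5 and 5.63. The 8 B cell markers summed to 146 and 103 CPM in WT and 114, 254 and 294 in the dKO-labelled libraries. Pax5 was at 0 in 3 libraries and Rag1 in 2. Of the 6 tested, 4 had every dKO-labelled library above both WT libraries, beside 13.7% of all genes. Among these, Cd79a, a chain of the B cell receptor, measured 15.5 and 3.53 CPM against 20.5, 49.6 and 52.2, and the transcription factor Ebf1 1.37 and 0.481 against 3.50, 12.3 and 28.6. The part of these cells in the mitotic values was not tested either.

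The replication licensing list, of helicase subunits and other replication genes, did not as a set share the gap between the WT libraries. WT replicate 2 exceeded WT replicate 1 in 6 of its 11 genes. The ratio ran from 0.90 for Mcm2 to 1.62 for Gmnn, with a median of 1.08. The 11 genes summed to 4597 and 4547 CPM in WT and to 2761, 3147 and 2454 CPM in the dKO-labelled libraries. All 11 had every dKO-labelled library below both WT libraries, beside 15.6% of all genes. At an unadjusted p under 0.05, 9 were lower, beside 5.19% of all genes. The median log2 fold change of the 11 was -0.76. For example, Mcm2, a helicase subunit, measured 425 and 383 CPM against 251, 232 and 149, and Mcm3 572 and 618 against 398, 480 and 340. None passed edgeR's adjusted test, the smallest adjusted p being 0.430. Among genes of cell cycle exit, Cdkn1a, an inhibitor of cyclin-dependent kinases, measured 37.5 and 40.1 CPM in WT and 111, 173 and 160 in the dKO-labelled libraries, while its relative Cdkn1b stayed between 2.47 and 5.92 CPM.

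**Figure D3:**
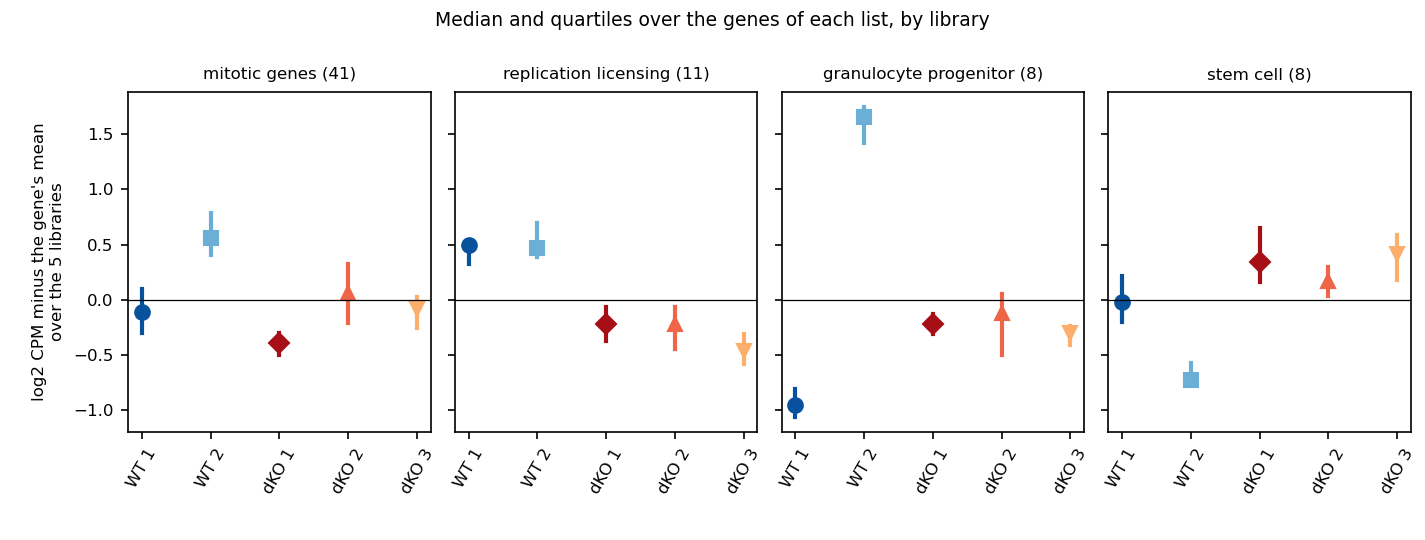
Median (symbol) and quartiles (bar) over the genes of each list of log2 CPM minus the gene's mean over the 5 libraries. The mitotic genes stand at -0.11 and 0.56 in the WT libraries, whereas the replication licensing genes stand at 0.49 and 0.47, and granulocyte progenitor markers at -0.95 and 1.66.

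Within the spindle checkpoint, which delays anaphase until chromosomes are attached, Bub1 had the lowest fold change of all 41 genes. Bub1 measured 52.3 and 86.0 CPM in WT (69.2 ± 23.8, SD, n = 2) and 30.3, 26.3 and 22.0 in the dKO-labelled libraries (26.2 ± 4.15, SD, n = 3). The groups did not overlap, and the log2 fold change was -1.40 (95% interval -2.18 to -0.62), with an adjusted p of 0.430 by edgeR and 0.0238 by DESeq2. Mad2l1, the checkpoint effector that binds Cdc20, measured 121 and 172 CPM against 65.5, 87.5 and 120. The highest of its dKO-labelled libraries came within 1.49 CPM of WT replicate 1, and the log2 fold change was -0.69 (-1.39 to 0.01; edgeR adjusted p = 0.501). The remaining 3 were Bub3 (-0.34), the partner of both Bub1 kinases, Bub1b (-0.40) and the kinase Ttk (0.10). Bub1b was highest (159 CPM) and lowest (50.2 CPM) in dKO-labelled libraries, with WT at 110 and 145. Bub1b and the other members described outside the naming rule were chosen after their values were seen.

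Among kinetochore and centromere genes, members of the same protein complex differed in value. The NDC80 complex, which holds the microtubule end, consists of Nuf2, Ndc80, Spc24 and Spc25. Nuf2 measured 90.5 and 120 CPM in WT (105 ± 20.6, SD, n = 2) and 52.8, 45.4 and 57.9 in the dKO-labelled libraries (52.0 ± 6.28, SD, n = 3). The groups did not overlap, at a log2 fold change of -1.01 (-1.61 to -0.42), with an adjusted p of 0.430 by edgeR and 0.0359 by DESeq2.

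Ndc80 had a similar fold change, -1.02, with a far wider interval (-2.42 to 0.37). Its values were 57.0 and 74.4 CPM in WT and 36.5, 9.37 and 50.9 in the dKO-labelled libraries, so that dKO replicate 2, the shallowest, stood lowest, and the log2 fold change without it was -0.58. Spc24 measured 162 and 205 CPM against 95.3, 164 and 124, with a log2 fold change of -0.52 (-1.14 to 0.09; edgeR adjusted p = 0.553). Of its dKO-labelled libraries 1 thus lay above WT replicate 1. Spc25 stood at -0.31, and the centromeric histone Cenpa at -0.25. The motor Cenpe (0.00) had all 3 dKO-labelled values inside the WT range of 29.1 to 44.6 CPM, and the large kinetochore protein Cenpf (0.19) had 2 inside its range of 18.0 to 41.5 CPM and dKO replicate 2 above it.

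For the cyclin B genes and Cdk1 most dKO-labelled values lay inside the WT range, whereas for cyclin A all 3 lay below it. Ccnb1 measured 114 and 296 CPM in WT and 105, 231 and 117 in the dKO-labelled libraries, of which 2 lay near WT replicate 1 and the other between the WT values. The log2 fold change of -0.44 (-1.51 to 0.62; edgeR adjusted p = 0.830) became 0.39 without WT replicate 2. Ccnb2 measured 174 and 278 CPM against 119, 262 and 225, a log2 fold change of -0.16 (-0.98 to 0.66; edgeR adjusted p = 0.942) that became 0.21 without WT replicate 2 and 0.11 without dKO replicate 1. Cdk1 measured 96.2 and 188 CPM against 60.1, 110 and 107, so that only dKO replicate 1 lay outside the WT range. Its log2 fold change was -0.63 (-1.47 to 0.22; edgeR adjusted p = 0.609), and -0.07 without WT replicate 2.

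Ccna2, cyclin A of S phase and early mitosis, measured 79.3 and 107 CPM in WT and 51.4, 53.2 and 53.5 in the dKO-labelled libraries. It had the smallest spread within groups of the 41 genes, with an SD of 0.18 in log2 CPM against a median of 0.43 for the set and 0.51 for all tested genes. The log2 fold change was -0.82 (-1.40 to -0.24), with an unadjusted p of 0.0118 and an edgeR adjusted p of 0.436.

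Of the 3 genes listed as anaphase-promoting complex and securin, Cdc20 and Ube2c overlapped between groups. Cdc20 measured 222 and 435 CPM in WT and 179, 295 and 275 in the dKO-labelled libraries, a log2 fold change of -0.40 (-1.15 to 0.36; edgeR adjusted p = 0.757) that became 0.17 without WT replicate 2. Ube2c measured 67.4 and 157 CPM against 63.4, 87.0 and 74.2. All 3 stood near WT replicate 1 and far under WT replicate 2, and the log2 fold change of -0.59 (-1.43 to 0.25; edgeR adjusted p = 0.636) became 0.14 without the latter. Pttg1, securin, was non-overlapping by a margin of 0.256 CPM only, with 59.2 and 67.9 CPM against 59.0, 39.8 and 55.6, and overlapped in TPM.

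All 6 genes of the mitotic kinases and the chromosomal passenger complex had a lower fitted value, and their median was -0.61. This complex of Aurkb, Incenp, Birc5 and Cdca8 corrects faulty attachments at the centromere and later guides cleavage. Birc5, survivin, measured 163 and 266 CPM in WT and 104, 119 and 160 in the dKO-labelled libraries. The log2 fold change was -0.75 (-1.40 to -0.10; unadjusted p = 0.0290, edgeR adjusted p = 0.454). Cdca8, borealin, measured 180 and 278 CPM against 107, 173 and 159, with a log2 fold change of -0.65 (-1.30 to 0.00; edgeR adjusted p = 0.492). Both were non-overlapping, in each case with 1 dKO-labelled library within 7.21 CPM of WT replicate 1, but in TPM Cdca8 overlapped, with dKO replicate 2 at 189 against 173 in WT replicate 1. Aurkb (-0.60) and Incenp (-0.59) were close to these in fold change, but each had a dKO-labelled library above WT replicate 1. The centrosomal kinase Aurka (-0.29) had every dKO-labelled library, at 59.8 to 69.8 CPM, between WT replicate 1 (48.2 CPM) and WT replicate 2 (112 CPM). Plk1, the kinase of centrosome maturation, stood at -0.62.

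The kinesins, motors that walk on or shorten microtubules, held 4 of the 7 genes with a higher fitted value and a median of 0.08 in log2 fold change. Leaving out WT replicate 1 turned that median to -0.22, leaving out dKO replicate 2 turned it to -0.25, and limma-voom gave -0.02. Kif4, the chromokinesin that shapes chromosome arms and the midzone, measured 17.5 and 45.9 CPM in WT and 34.6, 82.7 and 33.4 in the dKO-labelled libraries. It was highest in dKO replicate 2, and the log2 fold change was 0.66 (-0.64 to 1.97; edgeR adjusted p = 0.763), or 0.11 without that library. Kif11, the motor that pushes spindle poles apart, measured 137 and 219 CPM against 119, 166 and 123, a log2 fold change of -0.39 (-1.01 to 0.24; edgeR adjusted p = 0.699). Kif23, of the centralspindlin complex, measured 32.5 and 64.9 CPM against 67.2, 51.0 and 73.0, the only gene of the 41 with its highest value in dKO replicate 3. Kif20a (0.08), which carries the passenger complex to the midzone, and the depolymerase Kif2c (0.06) were highest in dKO replicate 2, at 139 and 98.9 CPM.

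All 6 spindle microtubule-associated genes had a lower fitted value, with a median of -0.60. Ckap2l measured 78.2 and 133 CPM in WT and 45.7, 39.0 and 61.3 in the dKO-labelled libraries. The groups did not overlap, at a log2 fold change of -1.12 (-1.87 to -0.36; unadjusted p = 0.00915, edgeR adjusted p = 0.434). Hmmr, a spindle protein that is also a hyaluronan receptor, measured 43.4 and 80.4 CPM against 40.5, 23.6 and 40.9, with a log2 fold change of -0.82 (-1.73 to 0.09; edgeR adjusted p = 0.528). WT replicate 1 was therefore nearer to the dKO-labelled libraries than to WT replicate 2. The spindle assembly factor Tpx2 (-0.66), the midzone bundler Prc1 (-0.54), Ckap2 (-0.25) and the bundling protein Nusap1 (-0.11) overlapped between groups.

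The 3 cytokinesis genes stood at a median of -0.20 in log2 fold change, and 0.07 without WT replicate 2. Racgap1, the partner of Kif23 in centralspindlin, measured 128 and 182 CPM in WT and 116, 176 and 124 in the dKO-labelled libraries. Its log2 fold change was -0.16 (-0.77 to 0.46; edgeR adjusted p = 0.915), and 0.05 on the TPM scale. Ect2, the activator of the cleavage furrow's GTPase, measured 88.6 and 126 CPM against 71.3, 90.5 and 72.0, with a log2 fold change of -0.46 (-1.06 to 0.13; edgeR adjusted p = 0.587). Anln, the furrow scaffold anillin, stood at -0.20.

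Top2a, which had the smallest ratio between the WT libraries, and Mki67 had non-overlapping groups in CPM. In TPM Top2a overlapped, with dKO replicate 2 at 195 and the WT libraries at 197 and 179. Top2a measured 406 and 442 CPM in WT and 271, 371 and 311 in the dKO-labelled libraries, a log2 fold change of -0.42 (-0.87 to 0.03; edgeR adjusted p = 0.526). Mki67 measured 166 and 207 CPM against 107, 131 and 156, a log2 fold change of -0.50 (-1.04 to 0.03; edgeR adjusted p = 0.519). Both had a lower value against either WT library alone, at -0.31 or lower for Top2a and -0.34 or lower for Mki67 whichever library was left out.

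**Figure D4:**
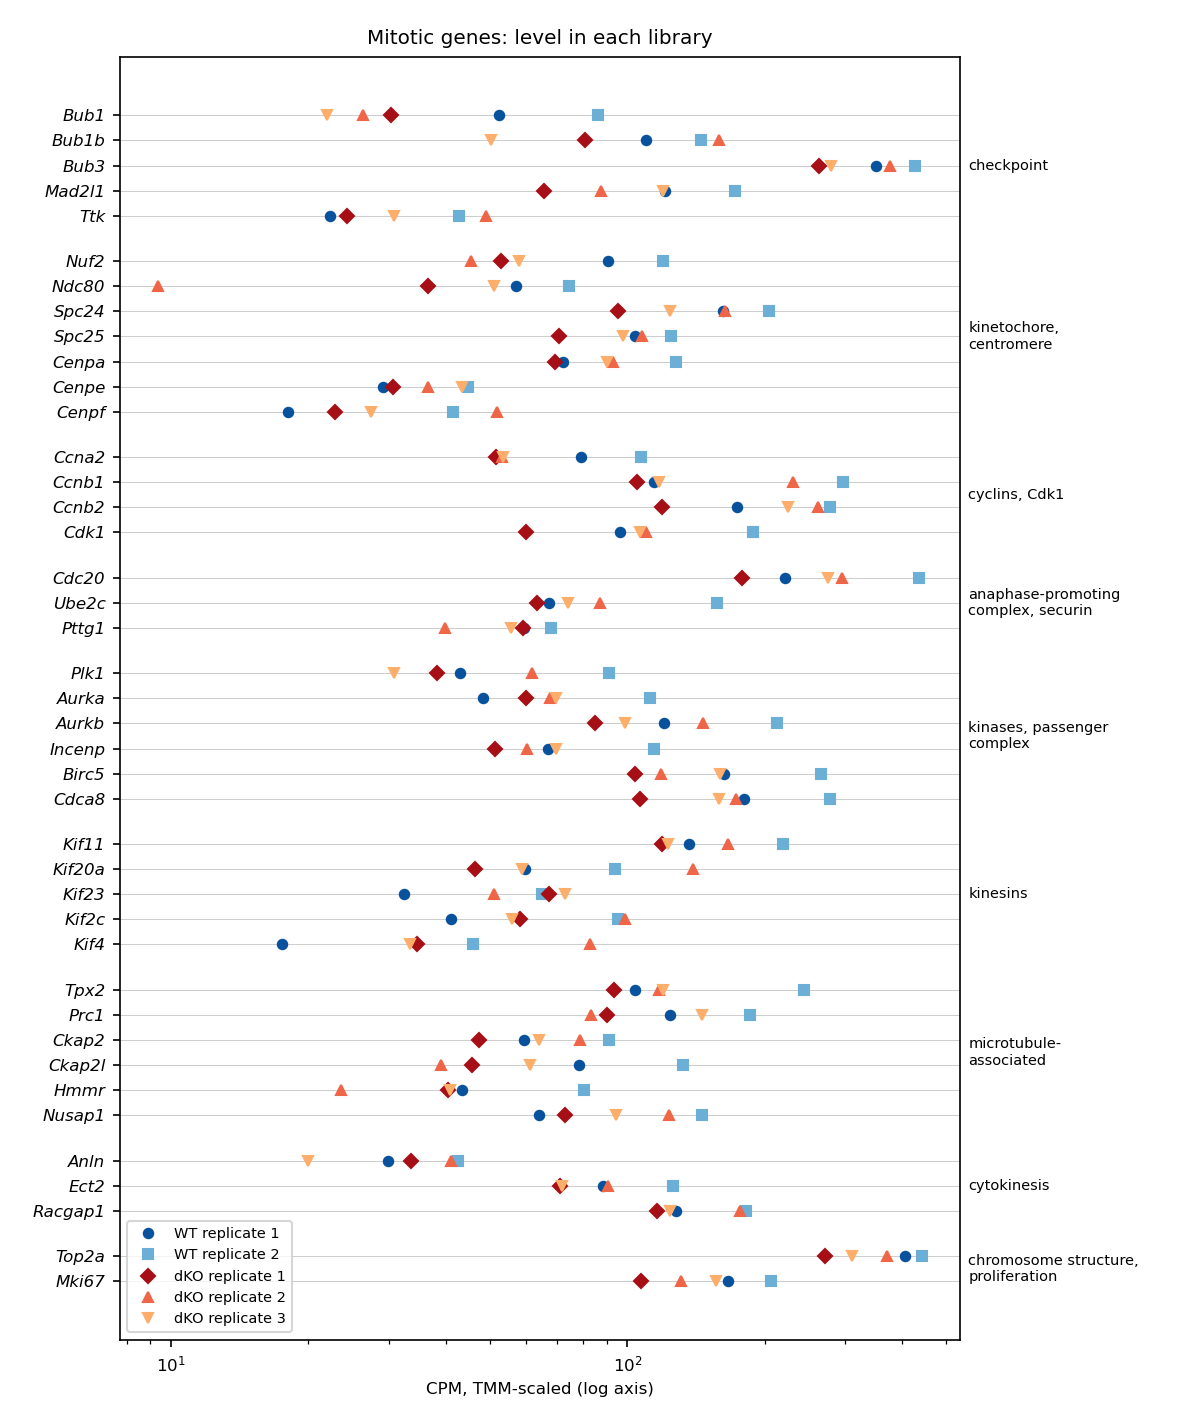
Level of each of the 41 mitotic genes in each library, in TMM-scaled CPM on a log axis, grouped by role. Circles and squares are WT replicates 1 and 2, and the other symbols the 3 dKO-labelled libraries. WT replicate 2 lies to the right of WT replicate 1 for every gene.

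**Figure D5:**
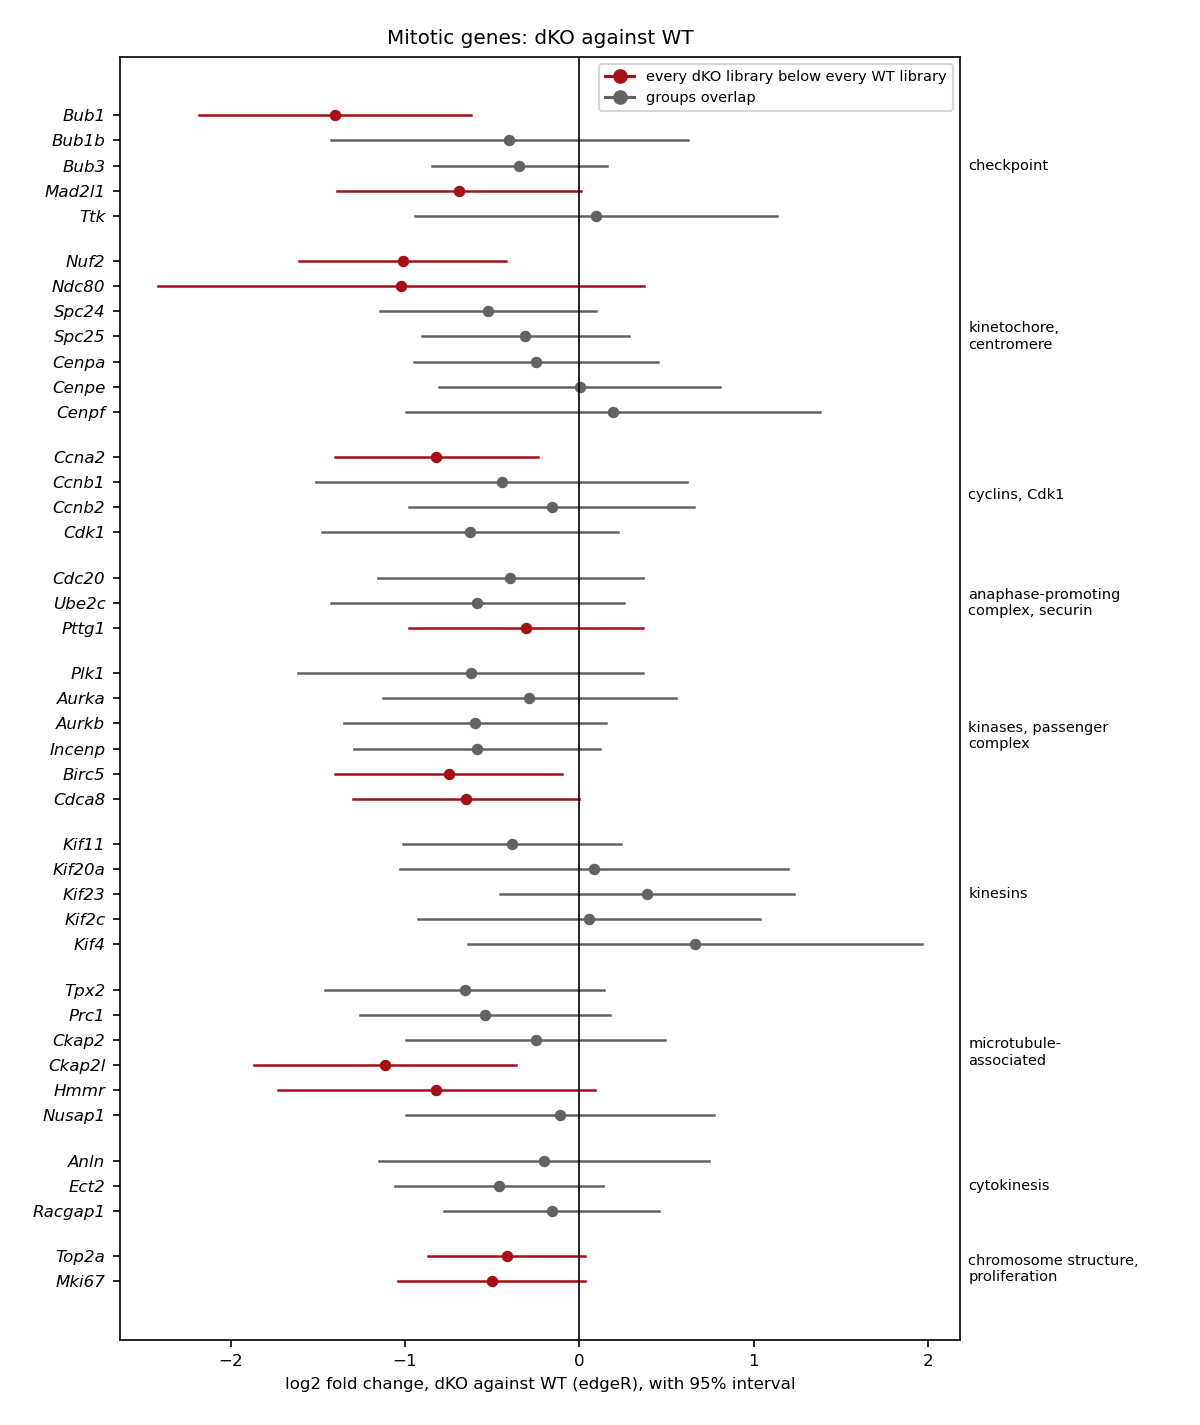
Log2 fold change of each mitotic gene, dKO-labelled against WT, with its 95% interval (edgeR, 2 against 3 libraries). Red marks the 12 genes whose dKO-labelled libraries all lie below both WT libraries. The intervals of 6 genes lie below 0 and none lies above.

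Within the dKO-labelled group, replicate 1 was the lowest library of all 5 for 23 of the 41 genes. It was below WT replicate 1 in 32 genes, dKO replicate 3 in 23 and dKO replicate 2 in 14. Set against WT replicate 2, the counts were 40, 40 and 35. Replicate 2 was the highest library for 6 genes (Bub1b, Ttk, Cenpf, Kif20a, Kif2c and Kif4) and the lowest for 6 others (Nuf2, Ndc80, Pttg1, Prc1, Ckap2l and Hmmr).

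Levels per transcript length were compared in the authors' TPM. Averaged over the 5 libraries, Bub3 was the highest at 285 TPM, ahead of Birc5 (271), Cdc20 (251), Ccnb2 (235), Spc24 (186) and Cdca8 (174). The lowest were the long kinetochore transcripts Cenpf at 5.48 TPM and Cenpe at 8.43, followed by Anln (11.01), Kif4 (17.7), Ttk (20.1) and Hmmr (22.6). Neighbours in this order overlapped widely between libraries, for example Bub3 at 230 to 346 TPM and Birc5 at 188 to 395 TPM.

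Other genes of mitosis, a list of 125 chosen by name with all tested, held 92 at a lower fitted value and 33 at a higher one, and its median was -0.31 in log2 fold change. None passed edgeR's adjusted test. At an unadjusted p under 0.05, 17 were lower, beside 5.19% of all genes, and 1 was higher, beside 4.94%. In 40 of the 125 every dKO-labelled library was below both WT libraries, beside 15.6% of all genes. In 5 every one was above, beside 13.7%. DESeq2 and limma-voom called 0 in either direction. Lower values were counted for 28 of 34 checkpoint and kinetochore genes, 21 of 28 regulators of entry and exit, 11 of 17 condensin and cohesin genes and 17 of 24 spindle and motor genes. They were also counted for 4 of 6 cytokinesis genes, 6 of 7 proliferation genes and 5 of 9 regulators of mitotic transcription. WT replicate 2 exceeded WT replicate 1 in 86 of the 125 (68.8%).

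The smallest p-values among the lower ones belonged to Haus1, a subunit of the augmin complex that branches spindle microtubules. It measured 105 and 129 CPM in WT and 48.4, 56.7 and 72.2 in the dKO-labelled libraries, a log2 fold change of -0.99 (edgeR adjusted p = 0.434). The Cdk1 cofactor Cks1b measured 312 and 473 CPM against 182, 232 and 271, a log2 fold change of -0.78 (edgeR adjusted p = 0.436), and the mitotic kinase Pbk 138 and 160 against 67.6, 105 and 96.5 (-0.73). All 3 were non-overlapping. Among the higher ones, Rbl2, the pocket protein of the repressive DREAM complex, measured 93.1 and 53.9 CPM against 128, 127 and 104, a log2 fold change of 0.71 (edgeR adjusted p = 0.486). Fzr1, which keeps the anaphase-promoting complex active after mitosis, measured 42.9 and 51.8 CPM against 83.9, 107 and 53.2 (0.78), and the motor Kif18a 23.3 and 15.2 against 29.7, 43.6 and 33.2 (0.88). Of the activators of mitotic promoters, Foxm1 measured 5.74 and 19.4 CPM in WT and 14.6, 9.19 and 7.08 in the dKO-labelled libraries. Mybl2 was at 31.2 and 29.0 CPM against 6.12, 18.3 and 21.01, a log2 fold change of -0.99 (edgeR adjusted p = 0.587).

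Genes whose groups did not overlap were found with and without the CHR core. Of the 12 such genes 11 had a promoter entry, of which 6 carried TTTGAA (Cdca8, Ckap2l, Hmmr, Mki67, Ndc80 and Top2a) and 5 did not (Birc5, Bub1, Mad2l1, Nuf2 and Pttg1). The median log2 fold change was -0.39 over the 27 genes with TTTGAA and -0.57 over the 8 without it. The median ratio of WT replicate 2 to WT replicate 1 was 1.60 and 1.58. These are descriptions without a test.

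Reads of some members could be shared with other genes. Annotated transcripts of 16 of the 41 matched another gene at 90% identity or more over at least 300 bases. For Ccnb1 the matches were pseudogenes, of which Ccnb1-ps (99.2% identity) held 1 count in all and Gm12856 (98.1%) 4. The Plk1 copy Plk-ps1 (93.5%) held 67 counts in dKO replicate 2 and 5 in the others together. For Hmmr the matches included expressed genes, such as Mettl6 (91.0% over 390 bases), with 8980 counts in all. Another was Ccdc77 (91.0% over 389 bases), with 4222 counts in all and 0 in dKO replicate 2. The matches of Mad2l1 and Ndc80 were pseudogenes that are not among the genes with counts. The part of shared reads in these values was not tested. Ccna2, Kif20a, Kif4 and Prc1 overlap a neighbour on the opposite strand (Exosc9, Cdc23, Pdzd11 and Rccd1) by 431 to 979 bases, and the sources used here do not give whether counting used strand, so reads in those stretches cannot be told apart.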

How the data were processed

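Libraries were made by Smart-seq2, a full-length method that amplifies RNA of few cells, from 6K sorted cells each, per the labels' protocols. For each of the 5 libraries the authors deposited raw counts per gene and, in a second file, TPM. Per the submitters' processing notes the build was mm9 and the tools were DESeq2, HTSeq, RSEM 1.2.31, TopHat2 2.1.1, Trimmomatic and FastQC 0.11.5. The sources used here do not give which tool made which values. Entries without a gene name, 30 in each file, held 0.216% to 0.269% of counts and were left out.

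Counts were tested over 13696 genes in R 4.3.3 with edgeR 4.0.16 (TMM, filterByExpr, robust quasi-likelihood fit, no covariate, Benjamini-Hochberg threshold 0.05). The test was also run on simulated counts, which held no gap between the WT libraries like the 1 seen here. That run therefore does not bear on this gap. Log2 CPM used a prior count of 2. Alternatives were DESeq2 1.42.0, limma 3.58.1 (voom on counts, and on log2 TPM plus 1 or plus 0.1), RLE and upper quartile scaling, no count filter, a filter of 5 CPM in 2 libraries, a replicate block, and leaving out 1 library at a time. Libraries differed beyond counting noise (chi-square per degree of freedom 99.6 or more), so none was counted as 1 library deposited more than once, which does not show that each came from its own animal. Amplified reads are not independent molecules, so counts speak for counting error only. Promoter stretches come from RefSeq on GRCm38.p6, and transcripts for the search of copies from GENCODE M21.

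The 41 genes, the other lists and the tests were chosen with earlier results of these data known. Genes described are the 2 with the smallest edgeR p per role group, Cdk1, Ccnb1, Ccnb2, Mki67 and Top2a, the 3 other mitosis genes with the smallest p per direction, Lrp5, Lrp6, the first 2 genes of each marker list, Foxm1, Mybl2 and Fzr1. Other genes were added after their values were seen. An erythroid marker and the sum of its list are not reported here.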

Additional observations from a re-analysis of the deposited data

How the results depend on the processing

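The count of mitotic genes called lower was 2 with DESeq2 (Bub1, adjusted p = 0.0238; Nuf2, adjusted p = 0.0359) and 0 under the 13 other alternatives, in which the adjusted p-values of both genes were higher. The count lower at an unadjusted p under 0.05, 6 by edgeR, was 13 with limma-voom (beside 6.73% of all genes in that fit), 3 with limma on log2(TPM + 1) (3.03%), 11 with the replicate block (4.51%), and from 0 (without WT replicate 2; 0.930%) to 16 (without WT replicate 1; 5.17%) on leaving out single libraries. The count with a lower value ranged from 22 to 40 on leaving out libraries, and the median log2 fold change from -0.694 to -0.069. The count with every dKO-labelled library below every WT library kept ranged from 12 to 34. The 34 came without WT replicate 1, where WT replicate 2 was the only WT library. With all libraries this count was 12, beside 15.6% of all genes. It was 9 on the TPM scales and 10 with upper quartile scaling. The count with every one above was 0 with all libraries, beside 13.7% of all genes, and 1 on both TPM scales. On leaving out libraries it was 0 to 8, the 8 being against WT replicate 1 alone. On the TPM scales the median over all genes shifted to 0.14, from which the mitotic genes' median was -0.33 away, compared with -0.46 in CPM. For the other mitosis genes the median was -0.11 and -0.12 on the TPM scales and -0.41 to -0.11 on leaving out libraries. Signs turned for 12 of the 41 genes without WT replicate 2, for 6 without WT replicate 1, for 5 with limma-voom, for 4 without dKO replicate 2, for 4 on each TPM scale (Aurka, Nusap1, Spc25 and, at 0.052, Racgap1), for 2 each with the block and without dKO replicate 1 or 3, and for 1 with no count filter. Of the genes named by rule, 5 turned on leaving out libraries. Their log2 fold changes then ranged from -0.40 to 0.11 for Racgap1, -0.98 to 0.39 for Ccnb1, -0.47 to 0.21 for Ccnb2 (also turned, to 0.11, without dKO replicate 1), -0.81 to 0.17 for Cdc20 and -1.08 to 0.14 for Ube2c. The cause was not tested. A lower value under every alternative was found for 21 of the 41. Deviations of same-numbered libraries correlated at 0.03 and 0.05, so no pairing by replicate number was seen. With 2 WT libraries, whose deviations mirror each other (correlation -1), this cannot exclude pairing. The block changed no adjusted call. Each value rested on 155 counts or more, but amplified reads are not independent molecules, and the 2 WT libraries limit every comparison.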
